A study of Rattus norvegicus with 458 samples.

Results

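The genes of miR-10 and miR-196 lie inside the HOX clusters, and their products were followed here from head to tail through the organs of the rat. The members were all entries of the miRNA count table in which any part of the name was miR-10a, miR-10b, miR-196a, miR-196b or miR-196c, without precursor entries. This gave 16 of 7534 entries. There were 10 single names, which are the 5p and 3p arms of the 5 genes, and 6 composite names, used for sequences that align to more than 1 precursor. Small RNA was sequenced from naïve Sprague Dawley rats, 5 male and 5 female, aged 12 to 13 weeks, and no group was treated. The labels name 23 tissues, with 10 rats for 19 of them before exclusions and 5 rats for each reproductive organ (testis, ovary, uterus). RNA of the dorsal root ganglion had another source and was pooled, with 5 technical libraries of a male pool and 5 of a female pool, so that it counted as 2 samples. In all, 205 libraries were used and 10 were left out. Replicates were separate rats except for those pools.

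HOX genes are transcription factors that give cells their position along the body axis, and they are switched on in an order that follows their place in the cluster. A miRNA gene inside such a cluster is often transcribed in the same body regions as the HOX genes beside it. A miRNA is cut from a hairpin whose 5′ and 3′ sides give the 5p and 3p arms, and bases 2 to 8 of the mature form, the seed, choose most of its targets. HOX mRNAs are known targets of both families, and Hoxb8 is a classical target of miR-196. miR-10 belongs to a wider family with miR-99 and miR-100, whose genes lie outside the HOX clusters.

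By the RefSeq annotation of the assembly GRCr8, Mir10a lies on chromosome 10 between Hoxb5 and Hoxb4, and Mir196c lies further toward the tail end of the same cluster, between Hoxb13 and Hoxb9. Mir10b lies on chromosome 3 at Hoxd4, Mir196b on chromosome 4 between Hoxa9 and Hoxa10, and Mir196a on chromosome 7 between Hoxc10 and Hoxc9. The 5p sequences are shown because the genes within each family differ at a single base, on which their separate counts rest. Seeds are in capitals, and the positions are those of the RefSeq mature entries. The first 5 lines are RefSeq sequences, and the last is the sequence counted most often under the name miR-10b-5p, written with T as deposited.
miR-10a-5p, chr10:81779730-81779752, + strand: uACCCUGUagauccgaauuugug
miR-10b-5p, chr3:80035886-80035907, + strand: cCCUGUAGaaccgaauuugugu
miR-196a-5p, chr7:135988900-135988921, + strand: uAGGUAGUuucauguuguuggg
miR-196b-5p, chr4:82661149-82661170, - strand: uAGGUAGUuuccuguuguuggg
miR-196c-5p, chr10:81727561-81727582, + strand: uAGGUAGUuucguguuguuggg
miR-10b-5p, most counted: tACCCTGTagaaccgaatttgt
The RefSeq entry of miR-10b-5p starts 2 bases later than the form counted most, which has the seed of miR-10a-5p. Positions are counted from 1 at the 5′ end of the most counted form, and the RNA letter is given first for the first name. Over 22 bases miR-10a-5p and miR-10b-5p differ by U12A. miR-196a-5p differs from miR-196b-5p by A12C and from miR-196c-5p by A12G, and miR-196b-5p differs from miR-196c-5p by C12G. All 3 miR-196 names therefore share 1 seed, and both miR-10 names share another. When the isomiRs, the sequence variants listed under a name, were counted by base 12 alone, miR-10a-5p, miR-10b-5p, miR-196a-5p and miR-196b-5p had 99.3%, 99.3%, 99.8% and 100.2% of the counts listed under their names. miR-196c-5p had 114.4%, since part of its sequences is listed under composite names.

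The unit of level is CPM, that is, how often a name was counted for every 1000000 counts in its library. All mature members have nearly the same length, so CPM was compared between names without a length correction. The authors state that ligation bias affected the counts of this study, so differences between names also hold unequal ligation of their sequences. Library totals ran from 376401 to 17725805 counts with a median of 4816409, and the 5 testis libraries, with at most 653651 counts, were the shallowest. The members took 14.3% of all counts, and the 5p arms of miR-10a and miR-10b made up 99.8% of the members' counts. The defining miRNAs of the labelled organs were found at high levels in those organs. For example, miR-122-5p of hepatocytes stood at 25926 to 40363 CPM in the liver, the heart muscle marker miR-208a-3p at 344 to 518 CPM in the heart, and the germ cell names miR-34c-5p and miR-449a-5p summed to 236280 to 348730 CPM in the testis.

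The 10 libraries left out by the selection stood apart from their labels. They were those of the duodenum of rats 2, 4, 7 and 11, the hippocampus of rats 2, 6 and 7, the adrenal and the uterus of rat 8 and the ovary of rat 11. Their miR-196b-5p and miR-10b-5p levels show how far apart they lay. The left-out hippocampus libraries of rats 2 and 7 held 668 and 109 CPM of miR-196b-5p, against at most 0.934 CPM in the 7 hippocampus libraries used. The left-out duodenum library of rat 11 held 405233 CPM of miR-10b-5p, against at most 5985 CPM in the 6 that were used. Kept under their labels, these libraries reversed differences that involve the hippocampus and the duodenum (see the closing section). A brainstem library, that of rat 9, was used but also stood apart. It held 728 CPM of miR-10a-5p and 766 CPM of miR-10b-5p, where the other 9 held 9684 to 15993 CPM and 9701 to 16070 CPM. Its oligodendrocyte miRNA miR-219a-2-3p was lower (1335 against 2464 to 3396 CPM) and its neuronal miR-128-3p higher (9799 against 4161 to 5860 CPM) than in all 9 others, so the main brainstem differences are also given without it.

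**Figure D1:**
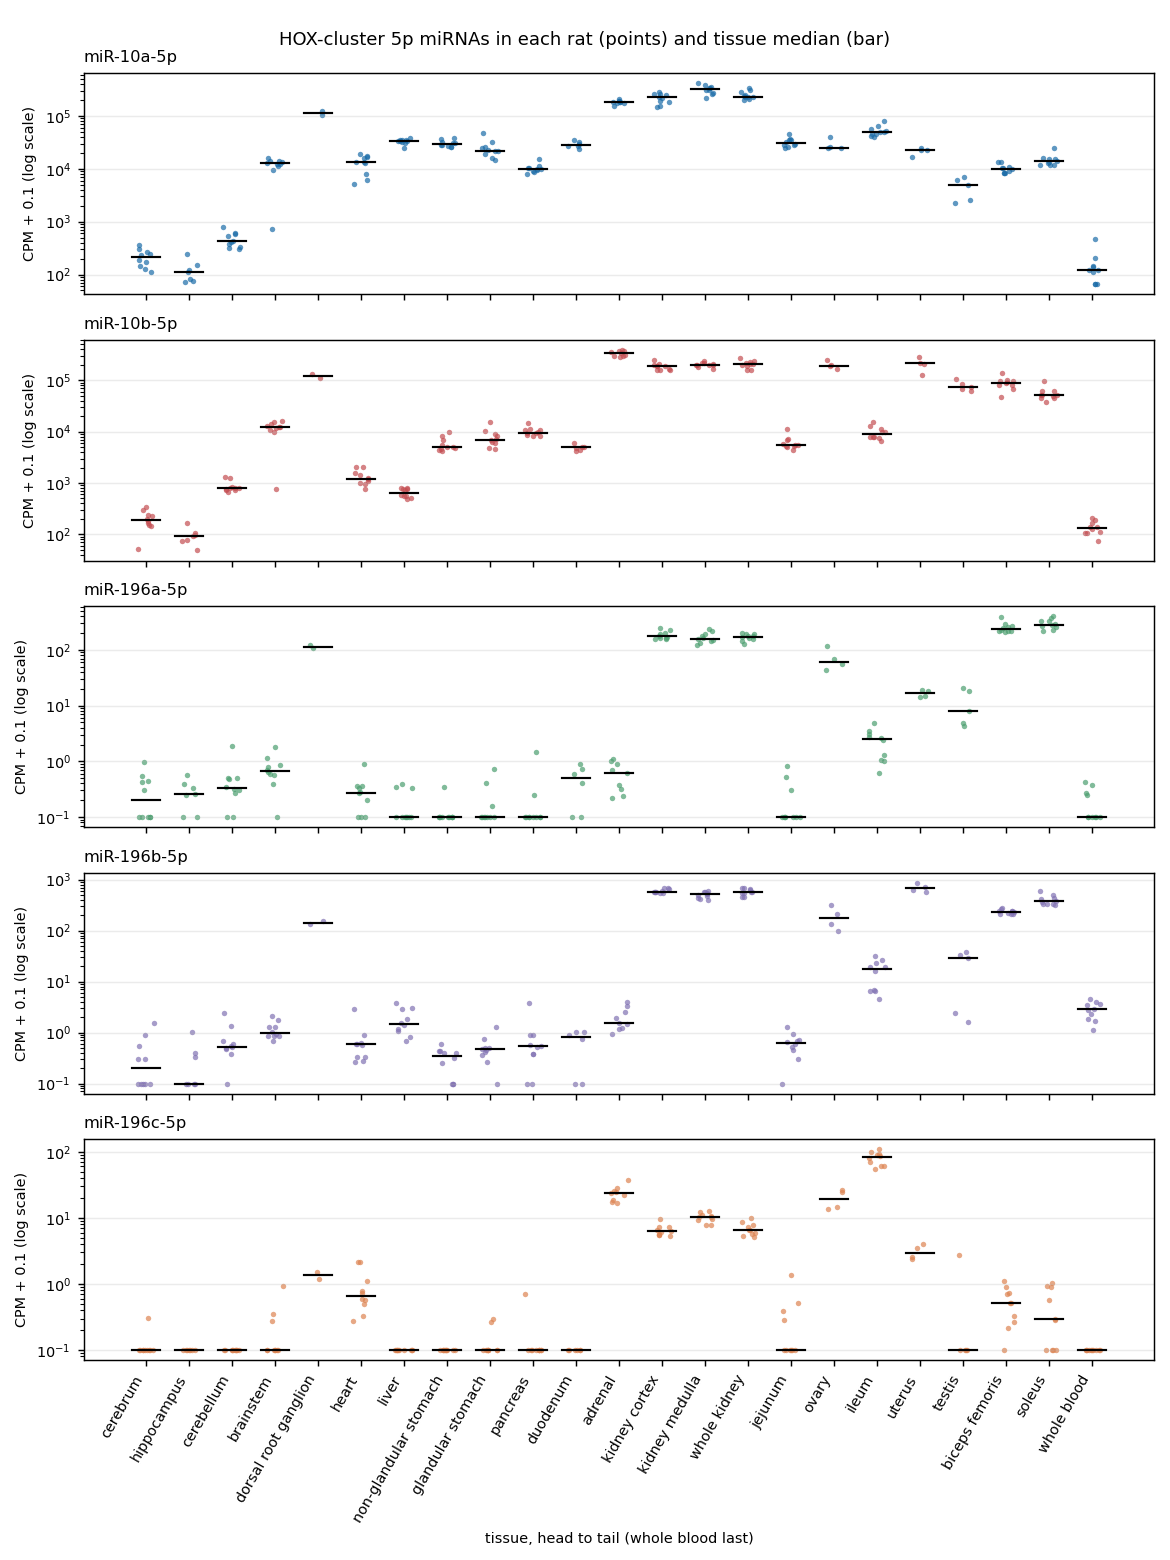
CPM of the 5 HOX-cluster 5p miRNAs in each tissue in head-to-tail order, with whole blood last. The y axes are logarithmic and show CPM plus 0.1, points are rats (2 pools for the dorsal root ganglion) and bars are medians. miR-10a-5p and miR-10b-5p were at or above 48.5 CPM in every sample, while miR-196c-5p was at 0 in all samples of 6 tissues.

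miR-10b-5p was most abundant in the adrenal, where 9 rats had 284263 to 391601 CPM with a median of 338447. All 9 adrenal libraries lay above every kidney library. The uterus, whole kidney, kidney medulla, ovary and kidney cortex followed with mean levels between 187375 and 209827 CPM, and neighbours in this order differed by less than 1 SD. Biceps femoris (89191 ± 24234 CPM, SD, n = 10), testis (78595 ± 17010, n = 5) and soleus (54775 ± 15930, n = 10) came next. The dorsal root ganglion pools, from another source, lay between the kidney and the biceps femoris. The gut, the stomach, the pancreas and the brainstem had mean levels between 4925 and 11563 CPM, and again each lay within 1 SD of the next. In the pancreas, leaving predicted and precursor names out of the total raised the means from 10199 to 25988 CPM for miR-10b-5p and from 10216 to 26018 CPM for miR-10a-5p, and no other tissue moved by over 1 SD. The authors report the lowest RNA integrity for the pancreas, and the fewest sequences assigned to mature miRNAs there. The part of RNA integrity in the pancreas values was not tested. The heart had 1330 ± 443 CPM (n = 10), the cerebellum 865 ± 219 CPM and the liver only 654 ± 129 CPM (n = 10). At the end of the order stood the cerebrum at 199 ± 81.0 CPM, whole blood at 137 ± 40.4 CPM and the hippocampus at 94.5 ± 36.4 CPM (n = 7).

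miR-10a-5p had another order. The kidney medulla was highest, with 218802 CPM in the lowest rat, 324858 in the median and 415407 in the highest. The whole kidney (251826 ± 47748 CPM), the kidney cortex (218518 ± 46493) and the adrenal (184069 ± 15491, n = 9) followed, and the ileum was the highest gut segment at 52746 ± 12345 CPM. The liver was rich in miR-10a-5p, with 24286 to 37827 CPM, in contrast to its low level of miR-10b-5p. The heart ranged from 5136 to 19344 CPM and overlapped with both limb muscles. The testis was low for a caudal organ, at 4577 ± 2126 CPM (n = 5). The lowest levels were again those of the cerebellum (468 ± 154), cerebrum (216 ± 80.8), whole blood (152 ± 120) and hippocampus (122 ± 59.6, n = 7).

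The 3 miR-196 5p names were far less abundant and had their steps further down the body. miR-196b-5p was highest in the uterus, with 575, 672 and 865 CPM as lowest, median and highest of 4 rats, and in the kidney cortex, with 547 to 697 CPM in 10 rats. From the cerebrum to the duodenum, leaving out the dorsal root ganglion, no tissue mean exceeded 1.71 CPM, the value of the liver. miR-196a-5p was highest in the soleus (217 to 400 CPM) and the biceps femoris (207 to 382 CPM), which overlapped, and in the kidney cortex (154 to 248 CPM). Its mean was at most 0.656 CPM in the brain, 0.0757 CPM in the liver and 0.198 CPM in the heart. miR-196c-5p had a pattern of its own. It was highest in the ileum with 55.1 to 109 CPM, followed by the adrenal with 16.5 to 37.6 CPM and the ovary with 13.5 to 26.7 CPM. The authors report that quantitative PCR did not amplify this miRNA, so its tissue pattern rests on the sequencing counts alone. No count of miR-196c-5p was found in the hippocampus, cerebellum, liver, non-glandular stomach, duodenum or whole blood. A count of 0 allows up to 0.161 CPM in the duodenum, the least deeply sequenced of these, and 0.0430 CPM in the non-glandular stomach (3 counts over all libraries of the tissue, for counting error only, since the reads carry no molecular identifiers).

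As a description, the rank correlation of the mean level with the head-to-tail order over 21 tissues, without the dorsal root ganglion and blood, was 0.71 for miR-196b-5p, 0.69 for miR-10b-5p, 0.66 for miR-196a-5p, 0.61 for miR-196c-5p and 0.32 for miR-10a-5p. The order is an anatomical choice, and neighbouring trunk organs overlap in position. In bulk tissue, fewer cells of a kind and less RNA per cell cannot be told apart.

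Tissues were compared in an edgeR fit of 197 samples and 1612 names that passed a filter on low counts, with upper quartile scaling. The fit gives a log2 fold change (first minus second tissue) with its standard error (SE), and a call means an adjusted p (Benjamini-Hochberg) below 0.05. Of the 16 members 15 passed the filter, and miR-100-5p;miR-10a-5p with 112 counts did not.

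Between the organs below the head (without the dorsal root ganglion and blood) and the 4 brain regions, 6 members were higher and none was lower. For the other 9 no fold could be fitted, because a tissue held no count of them. Among all names, 34.8% were called higher in that comparison. miR-10a-5p was higher by a log2 fold change of 7.72 (SE 0.20, adjusted p = 3.35e-88), miR-10b-5p by 7.31 (SE 0.19), miR-196b-5p by 6.54 (SE 0.25) and miR-196a-5p by 5.19 (SE 0.50). On flow cell D1GBMACXX alone the miR-196 values could not be fitted, since 5 tissues held no count of miR-196a-5p there and 1 held none of miR-196b-5p. The folds are means over organs and do not hold for each organ. Below the head, mean miR-196a-5p ran from 0.0244 CPM (non-glandular stomach) to 296 CPM (soleus), against 0.656 CPM in the brainstem. Mean miR-196b-5p ran from 0.210 CPM (non-glandular stomach) to 696 CPM (uterus), against 1.07 CPM in the brainstem. Kidney cortex, kidney medulla and whole kidney each entered the mean. The median of all names was itself 0.92 in this comparison, and 0.06 with TMM scaling. The share of higher names among all calls was 57.1% here and 31.2% with TMM scaling.

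**Figure D2:**
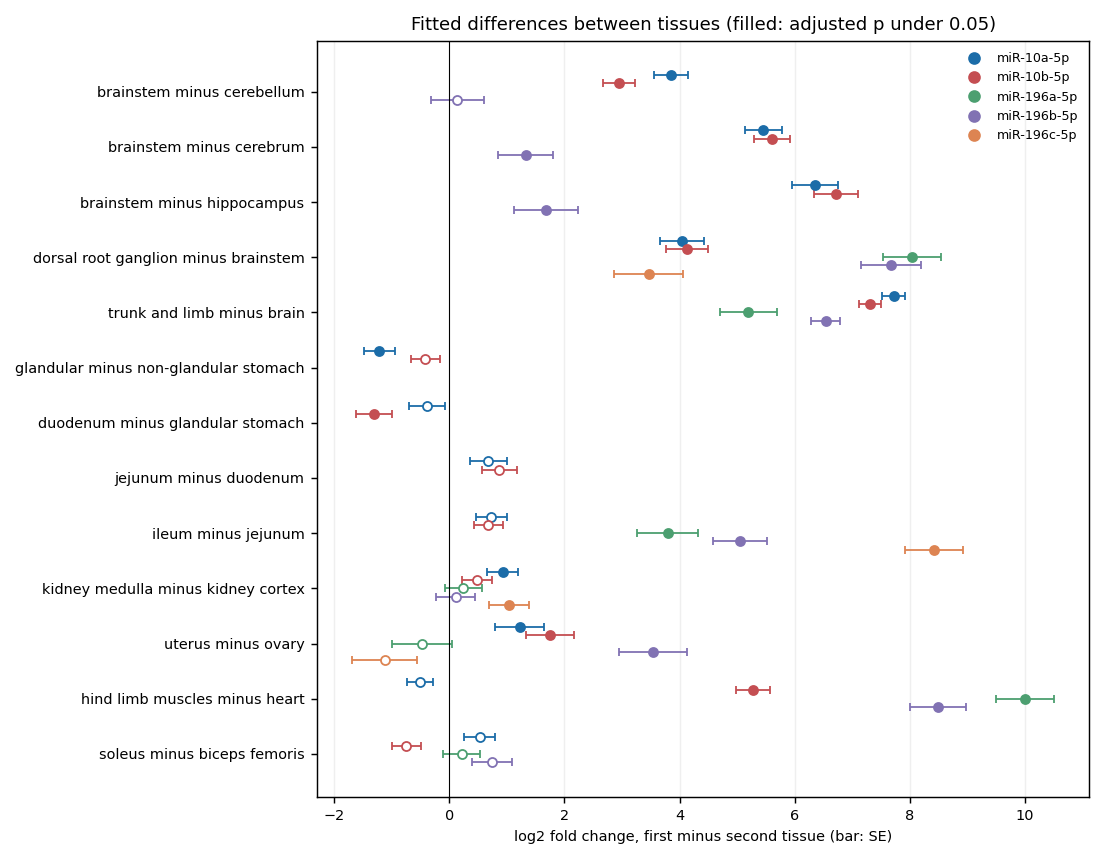
Log2 fold change, with SE as bars, of the 5 5p miRNAs in the 13 tissue comparisons. Filled points have an adjusted p below 0.05, and names whose mean was below 1 CPM in both tissues are left out. Both miR-10 names were higher in the brainstem than in each other brain region, and miR-196a-5p and miR-196b-5p were higher in the dorsal root ganglion than in the brainstem, in the ileum than in the jejunum and in hind limb muscles than in the heart.

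Within the brain, both miR-10 names stood out in the brainstem, the region nearest the spinal cord. miR-10a-5p had 114, 213 and 367 CPM as lowest, median and highest value in the cerebrum, 309, 422 and 782 CPM in the cerebellum, and 728, 12673 and 15993 CPM in the brainstem. miR-10b-5p had 51.0, 189 and 337 CPM in the cerebrum, 663, 791 and 1310 CPM in the cerebellum, and 766, 12395 and 16070 CPM in the brainstem. Every rat was higher in the brainstem than in its own cerebrum and cerebellum for both names, and without rat 9 the brainstem and cerebellum ranges did not overlap.

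Against the cerebrum, miR-10a-5p was higher by 5.46 (SE 0.32, adjusted p = 5.78e-36) and miR-10b-5p by 5.60 (SE 0.31, adjusted p = 6.01e-39) on the log2 scale. Against the hippocampus the values were 6.35 (SE 0.40) and 6.72 (SE 0.39), and against the cerebellum 3.85 (SE 0.30) and 2.95 (SE 0.27). Without rat 9 the log2 fold changes against the cerebrum were 5.61 and 5.75, those against the hippocampus 6.50 and 6.87, and those against the cerebellum 3.99 and 3.09. Of the 15 members, 6 were higher in the brainstem than in the cerebrum (6.33% of all names), 6 than in the hippocampus (8.13%) and 5 than in the cerebellum (13.5%), and none was lower. The others among them were the 3p arms of miR-10a and miR-10b and the composite miR-10a-5p;miR-10b-5p, and, except against the cerebellum, miR-196b-5p. The last was called at a mean of 1.07 CPM in the brainstem against 0.308 CPM in the cerebrum (log2 1.33, SE 0.48, adjusted p = 0.0422). This call was lost with the 10 left-out libraries kept (log2 1.37, adjusted p = 0.35), on flow cell D1GBMACXX alone (log2 0.88, adjusted p = 0.366) and when counted by the diagnostic base (log2 1.28, adjusted p = 0.0553). Its call against the hippocampus was lost on flow cell D1GBMACXX alone (log2 1.06, adjusted p = 0.259), and with the left-out libraries kept the value turned to -9.13. The share of higher names among all calls was 45.2% against the cerebellum and 40.6% against the cerebrum, and 75.5% and 55.3% with RLE scaling. The 2 oligodendrocyte miRNAs also differed, with summed levels of 7423 to 12864 CPM in the brainstem, 2376 to 5059 CPM in the cerebrum and 1732 to 2900 CPM in the cerebellum. The neuronal names (2 of 3 matched) had 6630 to 13306, 38830 to 65026 and 18684 to 29013 CPM. Their part in the result was not tested.

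The step from the brainstem to the dorsal root ganglion, the sensory ganglia beside the spinal cord, added the miR-196 genes. The male and female pools held 104184 and 125363 CPM of miR-10a-5p and 108273 and 131994 CPM of miR-10b-5p, all above the 10 brainstem libraries. For miR-196b-5p the pools had 136 and 152 CPM, where no brainstem library exceeded 2.03 CPM, and for miR-196a-5p 107 and 120 CPM against at most 1.69 CPM. The log2 fold changes were 4.05 (SE 0.38) for miR-10a-5p, 4.13 (SE 0.36) for miR-10b-5p, 8.03 (SE 0.51, adjusted p = 3.14e-33) for miR-196a-5p and 7.68 (SE 0.53) for miR-196b-5p. miR-196c-5p was higher by 3.47 (SE 0.60) but reached only 1.28 CPM, from 25 counts. In total 13 of 15 members were higher and none was lower, against 14.5% of all names. Of all calls 61.0% were higher, and 32.1% in DESeq2. Without the brainstem library of rat 9 the values of miR-10a-5p and miR-10b-5p were 3.90 and 3.98, and those of miR-196a-5p and miR-196b-5p 8.00 and 7.63. The RNA came from another source than that of all other tissues, so the source and the tissue cannot be told apart, and 2 pools allow no statement on single animals. Technical libraries of the male pool spread from 94417 to 140281 CPM for miR-10a-5p.

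Along the gut, the miR-196 genes and the miR-10 genes behaved differently. The segments were the 2 parts of the stomach, the duodenum next to it, the middle of the jejunum and the last part of the ileum. In the ileum, miR-196c-5p had 55.1, 82.9 and 109 CPM as lowest, median and highest value. In the jejunum its median was 0 and the highest rat had 1.29 CPM. The ranges did not overlap, the mean in the ileum was 370-fold that of the jejunum, and all 10 rats were higher in the ileum. The jejunum mean rests on 10 counts in 10 libraries, so the size of this fold is set near the detection limit. The fitted log2 fold change was 8.42 (SE 0.51, adjusted p = 4.45e-31).

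miR-196b-5p had 4.51 to 31.4 CPM in the ileum and at most 1.19 CPM in the jejunum (log2 5.05, SE 0.46, adjusted p = 6.95e-19). miR-196a-5p reached only 0.528 to 4.68 CPM against 0 to 0.724 CPM (log2 3.79, SE 0.53, adjusted p = 3.13e-09), with overlapping ranges, and its call was lost on flow cell D1GBMACXX alone (log2 1.97, adjusted p = 0.467). The 3p arm of miR-196c rose with its 5p arm, from a mean of 0.0214 to 17.1 CPM (log2 8.97, SE 0.60). miR-10a-5p had 24313 to 45849 CPM in the jejunum and 40637 to 81269 CPM in the ileum, and was higher in the ileum in 10 of 10 rats. Its fitted difference was 0.73 (SE 0.27, adjusted p = 0.111), and that of miR-10b-5p 0.68 (SE 0.26, adjusted p = 0.123). Of 15 members 6 were higher and none was lower, with 3.23% of all names called higher, and the median log2 fold change was 3.40 for the members and -0.01 for all names. The intestinal epithelium names (2 of 2) summed to 182879 to 251840 CPM in the ileum and 349223 to 455479 CPM in the jejunum. The smooth muscle names (2 of 2) summed to 273834 to 364465 and 164515 to 263919 CPM. Their part in these differences was not tested.

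Further up the gut 3 members were called in the next 2 steps. From duodenum to jejunum 1 of 15 members was called higher, as were 1.74% of all names. This was miR-196c-5p, with 10 counts in 10 jejunum libraries and none in the 6 of the duodenum, so its fitted value rests on counts near the detection limit. Among all calls 32.2% were higher, and 58.1% in DESeq2. miR-10b-5p differed by 0.87 (SE 0.30, adjusted p = 0.0728) between the same segments, and by 1.05 (adjusted p = 0.0176) with the rat as a block. From the glandular stomach to the duodenum, 2 members were lower, among 10.2% of all names. They were miR-10b-5p, with 4635 to 15732 CPM in the stomach and 4198 to 5985 CPM in the duodenum (log2 -1.31, SE 0.31, adjusted p = 5.29e-04), and its 3p arm (log2 -1.71, SE 0.52). The exocrine pancreas names (2 of 2) had a summed median of 844 CPM in the duodenum, up to 1288 CPM, and at most 276 CPM in the glandular stomach, and their part was not tested.

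Within the stomach, miR-10a-5p had 25674 to 39054 CPM in the non-glandular part and 14999 to 48169 CPM in the glandular part. Its CPM was lower in the glandular part in 8 of 10 rats, and the fit called it lower there (log2 -1.21, SE 0.27, adjusted p = 3.12e-04). The mean CPM, 24672 in the glandular and 30608 in the non-glandular part, differed by less than the fit. Also called lower were miR-10a-3p (log2 -1.14, SE 0.27, adjusted p = 6.46e-04) and the composite of both miR-10 5p names (log2 -1.13, SE 0.38, adjusted p = 0.0342). These were 3 of 15 members, with 5.21% of all names called lower. Of all calls 57.4% were higher, and 74.3% with TMM scaling. miR-10b-5p was not called (log2 -0.42, SE 0.26, adjusted p = 0.342), and its mean CPM lay in the other direction, at 7885 in the glandular and 5800 in the non-glandular part. Smooth muscle names summed to 682360 to 798082 CPM in the glandular and 772861 to 881388 CPM in the non-glandular part, and the 3 epithelial names to 2248 to 5820 and 217 to 781 CPM, which was not tested as a part of the result.

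In the kidney, miR-10a-5p was higher in the medulla than in the cortex. The medulla had 218802 to 415407 CPM and the cortex 150970 to 285830 CPM. Each of the 10 rats was higher in the medulla, although the ranges overlapped. The log2 fold change was 0.93 (SE 0.27, adjusted p = 0.0112), and that of miR-10a-3p was 0.78 (SE 0.26, adjusted p = 0.0336). The call of miR-10a-3p was lost without a filter on low counts (adjusted p = 0.454), with the left-out libraries kept (adjusted p = 0.525) and on the other flow cells alone (log2 0.64, adjusted p = 0.0847). miR-10b-5p had 164732 to 234679 CPM in the medulla and 158610 to 249936 CPM in the cortex and was not called (log2 0.48, SE 0.26, adjusted p = 0.282). Both arms of miR-196c, the other gene of the HOXB cluster, were higher in the medulla, with log2 fold changes of 1.03 (SE 0.35, adjusted p = 0.0398) for the 5p arm and 1.61 (SE 0.37, adjusted p = 8.78e-04) for the 3p arm. The levels were low, at 7.70 to 12.7 CPM against 5.28 to 9.60 CPM for the 5p arm, and its call was lost in 8 of the alternatives listed in the closing section. miR-196a-5p (log2 0.24, SE 0.32) and miR-196b-5p (log2 0.11, SE 0.34, and -0.02 with RLE scaling) were not called. These 4 of 15 members compare with 4.9% of all names called higher. Of all calls 51.3% were higher, and 35.9% in DESeq2. Epithelial names summed to 2964 to 3746 CPM in the medulla and 1811 to 2709 CPM in the cortex, and their part was not tested.

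The 2 miR-10 genes differed in striated muscle. In the heart, 10 rats had 767, 1205 and 2061 CPM of miR-10b-5p as lowest, median and highest value. The soleus had 38008, 50767 and 95027 CPM and the biceps femoris 46670, 89774 and 138890 CPM, so every limb muscle lay far above every heart. miR-10a-5p, in contrast, ranged over 5136, 13462 and 19344 CPM in the heart, over 11796, 13966 and 24992 CPM in the soleus and over 8326, 10116 and 13419 CPM in the biceps femoris, and these values overlapped. Against the heart, the mean of both hind limb muscles was higher by 5.27 (SE 0.30, adjusted p = 2.01e-39) for miR-10b-5p and differed by -0.51 (SE 0.23, adjusted p = 0.0636) for miR-10a-5p. The sign of the latter turned with the scaling (0.24 with TMM and 0.28 with RLE scaling and in DESeq2), as did the median of all names, which was -0.47 here and 0.01 with TMM.

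miR-196a-5p and miR-196b-5p were near 0 in the heart, with at most 0.779 and 2.85 CPM in any heart against at least 207 and 211 CPM in any limb muscle library. Their log2 fold changes were 10.01 (SE 0.51, adjusted p = 1.37e-44) and 8.49 (SE 0.49, adjusted p = 1.38e-38). miR-196a-3p had no count in the heart and a mean of 8.29 CPM in the soleus, at least 155-fold more than the 3 counts over the group that a count of 0 allows. miR-196c-5p went the other way at very low levels, from 0.178 to 2.08 CPM in hearts against 0 to 1.00 CPM in limb muscles (log2 -1.47, SE 0.39, adjusted p = 8.42e-04). Of the 13 members fitted, 8 were higher and 1 was lower, but 40.9% of all names were called in 1 direction or the other between these tissues. Of all calls 26.9% were higher, and 57.4% in DESeq2. The striated muscle names (3 of 3) summed to 121314 to 141491 CPM in hearts and 213284 to 327956 CPM in limb muscles, and their part was not tested.

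Between the soleus, a slow muscle, and the biceps femoris none of the 15 members was called, against 7.2% of all names in either direction. Of all calls 68.1% were higher in the soleus, and 47.4% in DESeq2. The miR-10 genes nevertheless lay in opposite directions in each rat. miR-10a-5p had the higher CPM in the soleus in 10 of 10 rats (log2 0.53, SE 0.27, adjusted p = 0.277) and miR-10b-5p the lower in 10 of 10 (log2 -0.75, SE 0.26, adjusted p = 0.0545). miR-10b-5p passed the threshold in 9 alternatives, among them DESeq2 (log2 -0.94, adjusted p = 4.26e-04) and the fit with the rat as a block (log2 -0.80, adjusted p = 0.0195).

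In the female tract, where 4 ovaries and 4 uteri from mostly the same rats were used, the miR-196 genes differed among themselves. miR-196b-5p had 96.6, 173 and 311 CPM as lowest, median and highest of 4 ovaries, and 575, 672 and 865 CPM in 4 uteri, without overlap (log2 3.54, SE 0.59, adjusted p = 7.99e-07). In contrast, miR-196a-5p had 43.7 to 119 CPM in the ovary and 14.3 to 18.6 CPM in the uterus, and miR-196c-5p 13.5 to 26.7 and 2.29 to 3.96 CPM. Neither of these was called (log2 -0.47, SE 0.51, and -1.12, SE 0.56), although their CPM ranges did not overlap, and DESeq2 called both lower in the uterus (adjusted p = 0.0387 and 5.28e-04).

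For the miR-10 genes CPM and the fit also differed. miR-10b-5p had 166512 to 249738 CPM in the ovary and 127769 to 287345 CPM in the uterus, and miR-10a-5p 24391 to 40392 and 16447 to 24748 CPM, yet the fit gave log2 fold changes of 1.75 (SE 0.42, adjusted p = 9.57e-04) and 1.22 (SE 0.43, adjusted p = 0.0474). The smooth muscle names took 530693 to 683830 CPM of the uterus and 311470 to 374640 CPM of the ovary, and CPM are shares of a total that includes them. Their part in the result was not tested. The call of miR-10a-5p was lost without 6 of the 8 libraries in turn, and that of miR-10b-5p was not. In total 5 of 15 members were higher in the uterus, with 5.77% of all names. Of all calls 54.7% were higher, and 23.7% with TMM scaling.

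Because the 2 miR-10 names were both counted in every library, the ratio of their counts does not depend on scaling. It was computed as log2 of miR-10a-5p over miR-10b-5p with 0.5 added to each count. The liver had the highest ratio, between 5.38 and 6.10 in 10 rats with a mean of 5.67 ± 0.22 (SD), which corresponds to 51.1-fold more miR-10a-5p counts. The heart followed with 3.22 ± 0.40, then the duodenum with 2.55 ± 0.11 (n = 6), the ileum with 2.46 ± 0.25, the non-glandular stomach with 2.44 ± 0.34 and the jejunum with 2.39 ± 0.20. The brainstem (0.01 ± 0.12), pancreas (0.00 ± 0.09) and both dorsal root ganglion pools (-0.07 and -0.06) had ratios close to 0, which means nearly equal counts of both. The adrenal (-0.86 ± 0.14, n = 9), soleus (-1.87 ± 0.16), ovary (-2.82 ± 0.17, n = 4), biceps femoris (-3.09 ± 0.44), uterus (-3.23 ± 0.30, n = 4) and testis (-4.22 ± 0.53, n = 5) had more miR-10b-5p, with 18.6-fold more in the testis. The ratio of counts also holds any difference in how well the 2 sequences were ligated and amplified, which is the same in all tissues only if the sequence forms are.

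Of 11 pairs of tissues compared with two-sided permutation tests, 7 differed after adjustment over the 11 pairs. The hind limb muscles lay below the heart by 5.70 (mean difference -5.70, SE 0.15, permutation p = 2e-05, adjusted p = 5.5e-05), where 2e-05 is the smallest p that 100000 resamples can give. The soleus lay above the biceps femoris by 1.22 (SE 0.15, adjusted permutation p = 5.5e-05). The glandular stomach lay below the non-glandular part (-0.78, SE 0.12, adjusted permutation p = 5.5e-05), the duodenum above the glandular stomach (0.90, SE 0.07, exact permutation, adjusted p = 5.49e-04) and the kidney medulla above the cortex (0.46, SE 0.10, adjusted permutation p = 5.5e-04). The brainstem lay above the cerebellum (0.93, SE 0.11, adjusted permutation p = 5.5e-05) and below the hippocampus (-0.32, SE 0.14, exact permutation, adjusted p = 0.0291). The differences from jejunum to ileum (0.07, SE 0.10), duodenum to jejunum (-0.16, SE 0.08), cerebrum to brainstem (-0.16, SE 0.21) and ovary to uterus (-0.41, SE 0.17, where the smallest exact p for 4 against 4 rats is 0.0286) did not pass. Most tissues came from the same rats, so the differences were also tested within rats that had both tissues, by exact permutation of their signs, which was chosen after seeing the data. Of the 11 pairs, 2 changed sides of the threshold. The jejunum lay below the duodenum in 6 of 6 rats (-0.21, SE 0.06, exact p = 0.0312, the smallest that 6 rats allow, adjusted p = 0.0491). The brainstem lay below the hippocampus in 6 of 7 rats (-0.31, SE 0.13, exact p = 0.0469, adjusted p = 0.0645). The uterus lay below the ovary in 3 of 3 rats (-0.34, SE 0.14), where no exact p below 0.25 can be reached.

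**Figure D3:**
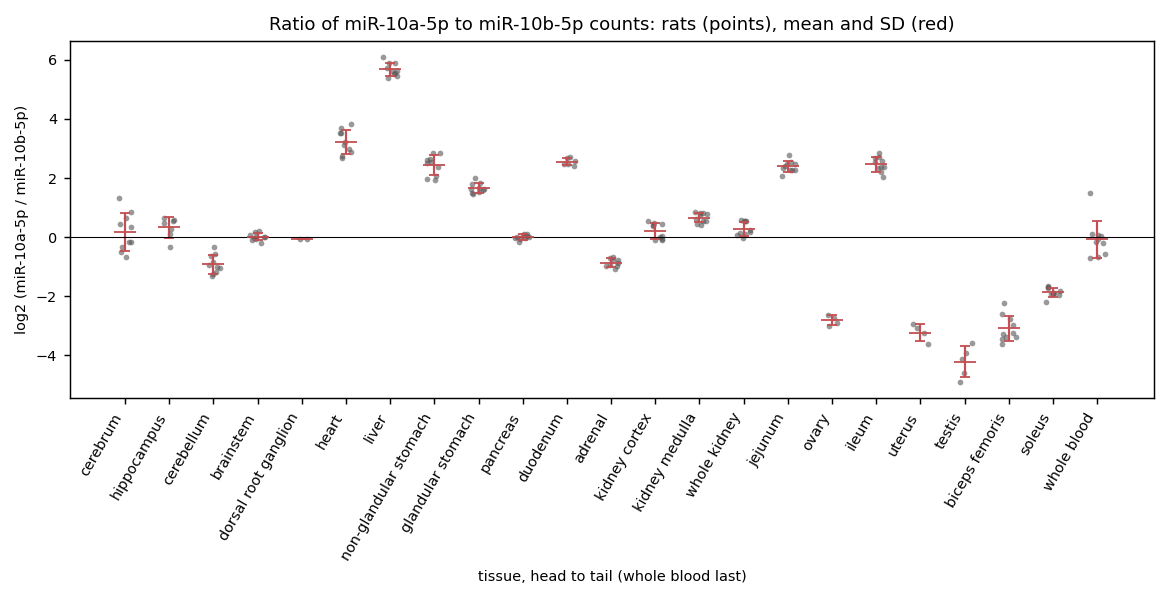
Log2 ratio of miR-10a-5p to miR-10b-5p counts in each tissue, head to tail, with whole blood last. Grey points are rats (2 pools for the dorsal root ganglion), and red marks are the mean with the SD. The liver at 5.67 and the heart at 3.22 lie highest, and the testis at -4.22 lies lowest.

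The make-up of the miR-196 counts also differed by organ. It was computed where every library held at least 20 counts of the 3 names, which was the case for 10 tissues. In the ileum miR-196c-5p took 82.0% of the counts on average (66.5 to 92.8% in 10 rats), and in the adrenal 90.2% (79.3 to 96.7% in 9 rats). In the uterus 97.2% were miR-196b-5p (96.3 to 98.0% in 4 rats). The 3 kidney preparations were alike, with 73.9 to 76.6% miR-196b-5p and 22.5 to 24.6% miR-196a-5p. The biceps femoris had 51.5% miR-196a-5p and 48.4% miR-196b-5p, and the soleus 42.7% and 57.3%. The ovary was mixed, with 66.0% miR-196b-5p, 25.6% miR-196a-5p and also 8.42% miR-196c-5p. The adrenal and the kidney, which lie next to each other, hence differed in kind, since the adrenal held at most 1.00 CPM of miR-196a-5p and 3.93 CPM of miR-196b-5p and the kidney cortex at least 154 and 547 CPM.

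**Figure D4:**
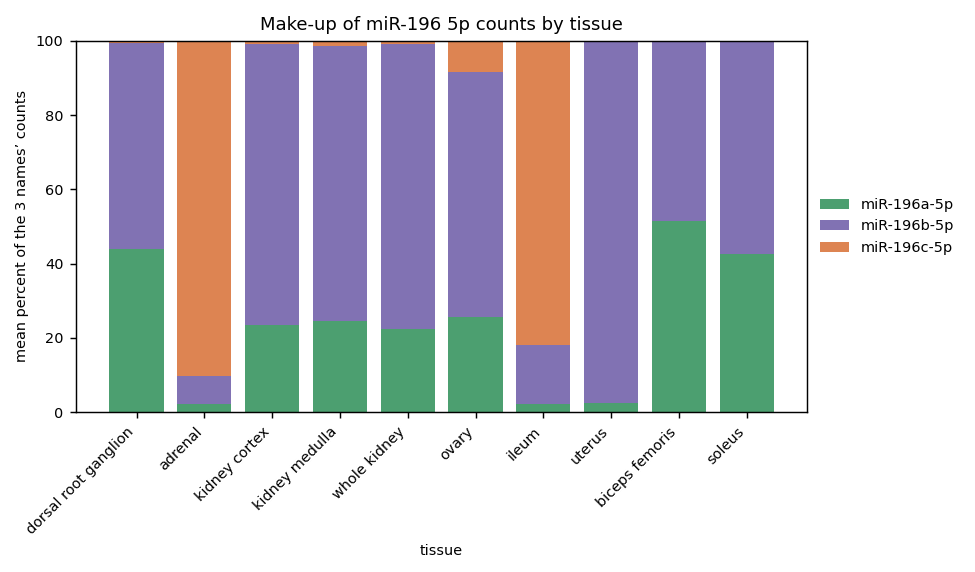
Mean percent of miR-196 5p counts taken by each of the 3 names, in the 10 tissues whose libraries all held at least 20 counts of the 3 names. The bars start at 0 and sum to 100. miR-196c-5p fills 82.0% of the ileum and 90.2% of the adrenal bar, and miR-196b-5p fills 97.2% of the uterus bar.

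The names most like the members across the body were mostly their own partners. Likeness was the Pearson correlation of mean log2 (CPM + 1) over 23 tissues, among 703 single names. Tissue means share the rats, the libraries and their composition, so the values are descriptions. For miR-10a-5p the closest were miR-10a-3p (0.947), miR-10b-5p (0.791) and miR-199a-5p (0.763). For miR-10b-5p they were miR-10b-3p (0.929), miR-214-3p (0.810) and miR-199a-5p (0.809), of which the last 2 are often found in connective tissue cells. For miR-196c-5p they were miR-196c-3p (0.961), miR-10a-3p (0.625) and miR-3075 (0.609), the last with at most 2.38 CPM in any adrenal library. miR-196a-5p and miR-196b-5p, added after the values were seen, were closest to each other (0.952).

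Another miRNA of the HOXC cluster, miR-615, lies on chromosome 7 at Hoxc5. The list had named its arms, which did not match, and the entry miR-615 was taken after the names were seen. No library of the cerebrum, hippocampus or cerebellum held a count of it, and the brainstem reached at most 0.419 CPM. Both dorsal root ganglion pools had 2.31 and 2.33 CPM, and the kidney cortex 0.844 to 3.20 CPM. It was higher in the dorsal root ganglion than in the brainstem (log2 4.43, SE 0.59, adjusted p = 2.7e-10) and in the hind limb muscles than in the heart (log2 5.42, SE 0.59, adjusted p = 7.12e-15), from 0 to 0.133 CPM in hearts and from 1.17 to 3.32 CPM in soleus libraries. Along the gut it fell from the non-glandular to the glandular stomach (log2 -2.25, SE 0.49, adjusted p = 2.32e-04). From there it fell again to the duodenum (log2 -4.34, SE 1.07, adjusted p = 0.0146). In the jejunum it was higher than in the duodenum (log2 4.87, SE 1.05, adjusted p = 0.00729). Both duodenum values have large SEs, and the levels given here for other tissues reach at most 3.32 CPM. The size of these folds is therefore uncertain. Across tissues miR-615 was the third closest name to miR-196a-5p (0.891).

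The miR-10 relatives outside the HOX clusters, were both arms of miR-99a, miR-99b and miR-100, and all 6 were tested. Brackets give the calls among all 1612 names. None was called between brainstem and cerebrum (102 higher, 149 lower). In the brainstem 1 was lower than in the hippocampus (121 lower). Against the cerebellum 1 was higher and 2 were lower (218 higher, 264 lower). In the dorsal root ganglion 1 was higher than in the brainstem (233 higher). All 6 were lower in the hind limb muscles than in the heart, where 482 of 1612 names were lower and 177 higher. In the trunk and limb 4 were lower and 1 higher than in the brain, where 421 names were lower and 561 higher. Along the gut none was called between ileum and jejunum (52 higher, 23 lower), as neither miR-10 5p name was. In the jejunum 2 were lower than in the duodenum (59 lower). In the duodenum 5 were lower than in the glandular stomach (165 lower). In the glandular stomach 1 was lower than in the non-glandular part (84 lower). None was called between kidney medulla and cortex (79 higher, 75 lower). In the soleus 1 was higher than in the biceps femoris (79 higher), and in the uterus 2 were higher than in the ovary (93 higher). As an example of levels, miR-99b-5p had 7909 to 12820 CPM in the cerebrum and 15317 to 22603 CPM in the cerebellum, where miR-10b-5p was at most 337 and 1310 CPM.

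The 2 arms of each hairpin were counted very unequally, and the 5 genes differed in this. Summed over all libraries, the 5p arm had 2981 times the counts of the 3p arm for miR-10a, 10298 times for miR-10b, 151 times for miR-196b and 35.7 times for miR-196a. For miR-196c it was 3.40 times, so that 22.7% of its counts came from the 3p arm. The mature 3p sequences of the HOXB genes, with seeds in capitals, are shown because both arms of miR-10a and of miR-196c were called higher in the kidney medulla than in the cortex, and both arms of miR-196c in the ileum than in the jejunum.
miR-10a-3p, chr10:81779771-81779792, + strand: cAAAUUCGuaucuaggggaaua
miR-196c-3p, chr10:81727598-81727619, + strand: aCAACAACaccaaaccaccuga
miR-196c-3p had 11.4 to 24.8 CPM in the ileum, 4.39 to 12.5 CPM in the adrenal and 1.65 to 4.01 CPM in the kidney cortex. miR-10a-3p was highest in the kidney medulla, with 91.9 to 120 CPM, and there its range lay above all but the highest of the cortex libraries, at 53.6 to 94.1 CPM.

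The deposited isomiR table gave the form of each counted sequence. In lane 8 of a flow cell, with 14 runs, only 41.4 to 47.4% of miR-10a-5p counts had a start that could be placed near the usual one, against 92.6 to 100% in 392 other runs. These runs were left out of the shares after this was seen. Shares were computed for samples with at least 100 counts. A start 1 base later, which moves the seed by a base, was found in 18.8 ± 1.3% (SD) of miR-10a-5p counts and 9.95 ± 1.3% of miR-10b-5p counts over 197 samples. The share was higher for miR-10a-5p in 197 of 197 samples, by 8.81 ± 0.99 percentage points, and also in 197 of 197 with the lane kept. Both means were highest in the testis, at 21.8% and 12.7% (n = 5). miR-196c-5p started 1 base later in 15.5 ± 4.0% of counts in 18 samples, with 19.1 ± 3.9% in the adrenal (n = 7) and 13.7 ± 1.5% in the ileum (n = 9). For miR-196a-5p the share was 0.179 ± 0.182% in 55 samples, and for miR-196b-5p 0.00586 ± 0.0178% in 62 samples, although all 3 begin with the same 11 bases.

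**Figure D5:**
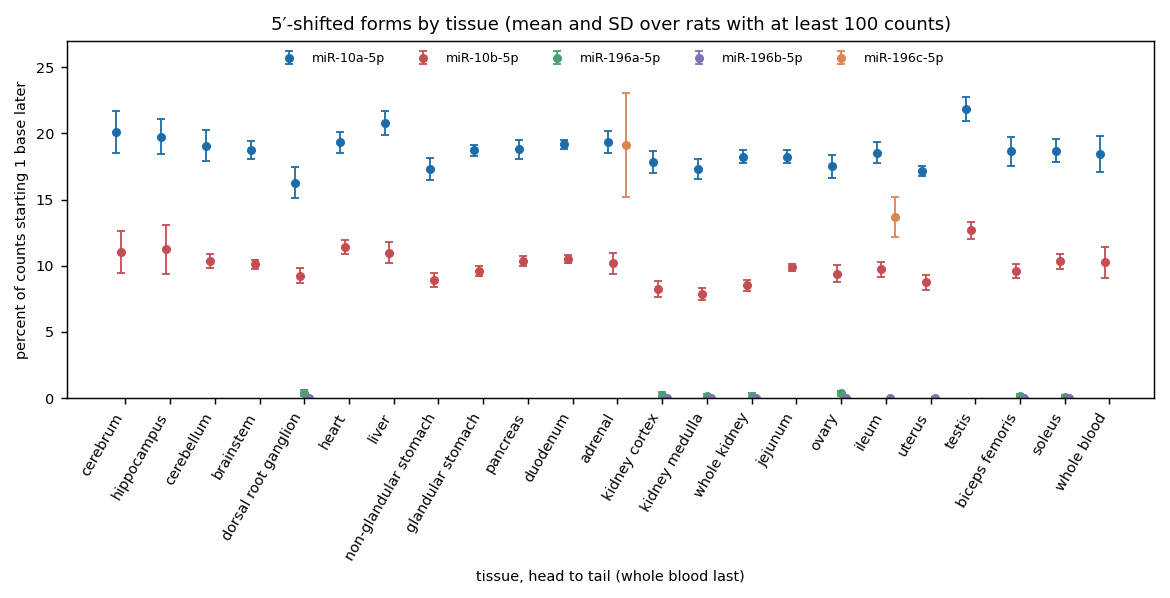
Percent of counts that start 1 base after the usual 5′ end, by tissue from head to tail with whole blood last. Points are means and bars SDs over samples with at least 100 counts of the name. miR-10a-5p lies above miR-10b-5p in all tissues, miR-196c-5p is shown for the adrenal (19.1%) and the ileum (13.7%), and miR-196a-5p and miR-196b-5p lie near 0.

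At the 3′ end, bases were counted as added where they did not match the hairpin. An added A was found in 23.5 ± 3.6% of miR-196b-5p and 11.9 ± 2.7% of miR-196a-5p counts, higher for miR-196b-5p in 55 of 55 samples with enough counts of both. An added U was more frequent in miR-196a-5p (11.2 ± 2.7%) than in miR-196b-5p (8.94 ± 2.2%) in 52 of 55. For the miR-10 genes an added A was found in 5.51 ± 1.2% of miR-10a-5p and 2.68 ± 0.52% of miR-10b-5p counts, higher for miR-10a-5p in 197 of 197 samples. Added A of miR-196c-5p was not compared, because many such sequences stand under the composite of the 3 miR-196 names with 899 counts.

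Between the sexes, few differences of members were called. In the 19 tissues of both sexes, 1 of 285 tests of members was called, against 1.08% of all names and tissues, and 20 had an unadjusted p below 0.05. The call was miR-10a-5p in whole blood, with 66.1 to 138 CPM in 5 female and 66.8 to 471 CPM in 5 male rats (log2 female minus male -0.91, SE 0.32, edgeR adjusted p = 0.0458). The ranges overlapped, the highest value was that of a single male, and the call was lost with the 10 left-out libraries kept (log2 -0.96, edgeR adjusted p = 0.603). In that tissue 118 of 1064 names were called. Of 150 edgeR interaction tests of members, which ask whether a comparison between tissues differs by sex, 0 were called. An unadjusted p below 0.05 was found in 5. Part of the 150 could not have been called, since names with few or no counts in a tissue had no usable fit. For example, miR-196c-5p had an SE of 4044 for jejunum minus duodenum. The lack of calls therefore does not show equal differences in both sexes.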

How the data were processed

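Total RNA was made into TruSeq small RNA libraries and sequenced on an Illumina HiSeq instrument. The authors trimmed adaptors (cutadapt 1.4.1 in the submitters' processing notes), aligned reads with the miRDeep2 quantifier to miRBase sequences of rat and then other species, and deposited raw counts per miRNA name and per isomiR for each of 458 runs. The 14 runs that name the same lane as another were set aside, and runs were summed per library and, for the dorsal root ganglion, per pool.

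All 23 tissues entered 1 edgeR 4.0.16 fit (R 4.3.3) with upper quartile scaling, filterByExpr by tissue, the quasi-likelihood test and Benjamini-Hochberg adjustment over all names tested. DESeq2 1.42.0 was an alternative. Ratios used two-sided permutation tests (scipy 1.17.1), exact where a group had fewer than 10 values and with 100000 resamples otherwise. The tests within rats were exact. Programs were tested on simulated data. Members and lists were chosen with earlier results of these data known. Named were all members and, for miR-10a-5p, miR-10b-5p and miR-196c-5p, the 3 names of highest correlation. Rats gave several tissues and so pair the samples by animal. The median correlation of deviations of the same rat ran from -0.12 to 0.26 across comparisons other than uterus and ovary, and the block stands beside the calls it changed. Extraction and flow cell were tried as alternatives. Library totals limit precision as given in the report.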

Additional observations from a re-analysis of the deposited data

Results flagged for a closer look

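In 14 of 91 groups of 4 to 10 rats tested with Dixon's criterion, 1 rat lay far from the others in the CPM of a member, where chance gives about 1 in 20 groups. In the brainstem, rat 9 was lowest for miR-10a-5p (728 CPM) and miR-10b-5p (766 CPM), and miR-10a-3p was at 0 against 3.80 to 8.22 CPM in the other 9. In 3 tissues 1 rat was far above the others for both miR-10 names. In the glandular stomach rat 7 had 48169 CPM of miR-10a-5p and 15732 CPM of miR-10b-5p. In the pancreas rat 10 had 15032 and 14942 CPM, and in the soleus rat 10 had 24992 and 95027 CPM. Single names met the same criterion in 6 further groups. They were miR-10a-5p in the ovary of rat 9 (40392 CPM) and the whole blood of rat 6 (471 CPM), miR-10b-5p in the kidney cortex of rat 3 (249936 CPM) and the jejunum of rat 6 (11031 CPM), miR-196c-5p in the kidney cortex of rat 7 (9.60 CPM) and miR-196a-5p in the biceps femoris of rat 2 (382 CPM).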

How the results depend on the processing

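Of 955 alternative values of 69 fold changes, 869 kept direction and side of the threshold, 27 passed it newly, 39 lost it and 20 turned sign. On single sets of flow cells 5 more values could not be fitted, because a tissue of a mean held no count. Causes were not tested unless the alternative itself shows them. With the 10 left-out libraries kept under their labels, values turned for brainstem minus hippocampus (miR-10a-5p -1.76, miR-10b-5p -4.06, miR-196b-5p -9.13, miR-10a-3p -1.83, miR-10b-3p -3.72, ratio 0.083), jejunum minus duodenum (miR-10b-5p -2.01, ratio 0.92) and duodenum minus glandular stomach (miR-10b-5p 1.56, miR-10a-3p -0.017, ratio -0.18). There the calls of miR-10a-5p for stomach (-1.18), kidney (0.93) and uterus (1.33), of miR-10b-5p for uterus (1.74) and of miR-196c-5p for kidney (1.03) were lost, as were those of miR-10a-3p for stomach (-1.10), kidney (0.78) and uterus (1.32), of miR-196b-5p for brainstem minus cerebrum (1.37) and of miR-10a-5p for sex in whole blood (-0.96), while 7 other sex differences were called. For hind limb minus heart, miR-10a-5p became 0.24 (TMM) and 0.28 (RLE, DESeq2) and miR-10a-3p 0.26, 0.29 and 0.29. For uterus minus ovary, miR-10a-5p lost its call at 0.67 (TMM) and 0.96 (RLE, DESeq2), and miR-196c-5p was called at -1.37 (DESeq2) and turned to 1.64 with composite names added. For medulla minus cortex, miR-196c-5p lost its call at 0.95 (TMM), 0.90 (RLE), 1.03 (no filter), 1.21 (composite names added), 1.27 and 0.90 (flow cell D1GBMACXX and the others alone) and 1.01 (extraction as covariate), miR-196b-5p turned to -0.016 (RLE, DESeq2) and -0.054 (other flow cells), and miR-10a-3p lost its call at 0.78 (no filter) and 0.64 (other flow cells). For uterus minus ovary, miR-10a-3p lost its call at 0.73 (TMM), 1.28 (no filter) and 1.56 (D1GBMACXX) and without 4 of 8 libraries in turn. With D1GBMACXX alone, miR-196c-5p lost its call for dorsal root ganglion (1.70), miR-196a-5p for ileum minus jejunum (1.97) and miR-196b-5p for brainstem minus cerebrum (0.88) and hippocampus (1.06), and miR-196b-5p for brainstem minus cerebellum (-0.50) and miR-10a-3p for duodenum minus glandular stomach (-0.10) turned.

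Newly called were miR-10b-5p for jejunum minus duodenum at 0.83 (TMM), 0.93 (RLE, DESeq2), 0.87 (no filter) and 0.95 (all runs summed), and for soleus minus biceps femoris at -0.84 (TMM), -0.94 (RLE, DESeq2), -0.75 (no filter and composite names added), -0.78 (all runs), -0.98 (D1GBMACXX) and -0.74 (without brainstem rat 9, chosen after seeing the data). With the rat as a replicate block these were 1.05 and -0.80, and the block changed no other fold change's call. Paired by rat, which was chosen after seeing the data, the ratio was called for jejunum minus duodenum (-0.21) and lost its call for brainstem minus hippocampus (-0.31), and no other ratio changed sides. Without a filter miR-10a-5p (0.73) and miR-10b-5p (0.68) were called for ileum minus jejunum, and miR-10a-5p for jejunum minus duodenum (0.68) and hind limb minus heart (-0.51), the last also with composite names added (-0.53) and without brainstem rat 9 (-0.51). The brainstem minus hippocampus ratio lost its call with the most counted sequence (-0.32). Leaving out 1 library at a time, uterus minus ovary ranged from 1.04 to 1.74 for miR-10a-5p, 1.51 to 2.15 for miR-10b-5p and -1.33 to -0.62 for miR-196c-5p, and dorsal root ganglion minus brainstem from 3.52 to 4.25, 3.59 to 4.34 and 2.92 to 3.74. Depth limits values under about 1 CPM, most of all in the testis, where a count of 0 over the group allows 1.24 CPM.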
